A study of Mus musculus with 48 samples.

Results

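The 10 genes described here encode the dual leucine zipper kinase (DLK) pathway to the kinase JNK and the enzyme pair that sets axon survival: Map3k12, Map3k13, Map2k4, Map2k7, Mapk8, Mapk10, Mapk8ip1, Mapk8ip3, Sarm1 and Nmnat2. They were chosen by name, and all 10 were matched by Ensembl gene identifier among the 34183 genes of each deposited table. RNA came from neuron-enriched cultures of dorsal root ganglion (DRG), the ganglion of sensory neuron cell bodies, from adult wild-type mice. The 12 groups of 4 libraries each were as follows. Untransfected cells were taken at time 0. Cells transfected right after isolation and harvested at 42 h received an ON-TARGETplus siRNA pool against Atf3, Atf4, Jun, Stat3, Klf6, Rest or Alyref, or a control pool (siCONTROL). Others received custom mRNA for green fluorescent protein (GFP), for Atf4, or for Atf4 and Cebpg together. Cells were grown in Neurobasal-A with B27 and transfected with the reagent the labels call Dharnafect 2. The mouse age is not given in the sources used here, and each target had 1 siRNA pool. The labels tie no replicate to its own animal or culture, so the p-values measure only the spread among libraries, which may be technical.

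DLK (Map3k12) and its close relative LZK (Map3k13) are stress-sensing kinases of the axon. When an axon is cut they activate the kinases MKK4 (Map2k4) and MKK7 (Map2k7), which activate the Jun kinases JNK1 (Mapk8) and JNK3 (Mapk10). The scaffolds JIP1 (Mapk8ip1) and JIP3 (Mapk8ip3) hold the kinases together and tie them to axonal motors, so that the signal reaches the nucleus and Jun and Atf3 are induced. SARM1 is the NADase that executes axon degeneration, and NMNAT2 is the short-lived axonal enzyme of NAD synthesis that holds SARM1 off. Much of this pathway is run by phosphorylation, which transcript levels do not measure.

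Each targeted transcript was lower in all 4 libraries of its own knockdown than in all 4 siCONTROL libraries. Atf4 averaged 14115 CPM in the Atf4 mRNA group against 643 CPM with GFP mRNA, and Cebpg averaged 60593 CPM with both mRNAs against 46.6 CPM with GFP mRNA, values that may include transfected molecules. Column totals ranged from 1539198 to 6621566, and the shallowest library was siKlf6 replicate 1. All 11 pan-neuronal markers had counts in every group, and their summed level lay between 10094.5 and 20098 CPM over the 48 libraries. Of the macrophage markers, C1qa had 0 counts in all libraries of 8 groups, and the red cell marker Alas2 in those of 9. C1qa does not stand for its list: the macrophage markers summed to a mean of 12.7 CPM at time 0 and 36.1 CPM in siCONTROL. In bulk RNA, fewer cells of a type and less RNA per cell cannot be told apart.

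Levels are given in CPM, the deposited expected counts scaled to a common library total. These counts appeared to be weighted by transcript length, so a CPM here is a level per length and may be compared between genes. The scaffolds were the most abundant of the 10 in siCONTROL cultures, with mean levels of 343 CPM for Mapk8ip1 and 267 CPM for Mapk8ip3. Mapk10 (137 CPM) and Map2k4 (102 CPM) followed, and their ranges over libraries overlapped. Nmnat2 had 77.4 CPM, Mapk8 66.6 CPM and Map2k7 57.5 CPM, with overlap between neighbours in this order. Map3k12 and Sarm1 could not be ordered, at 36.7 ± 1.40 and 36.5 ± 2.03 CPM (mean ± SD, n = 4). Map3k13 was the scarcest, at 4.05 ± 0.667 CPM. Its median expected count over the 48 libraries was 22.5 and its lowest was 7.45. As these values appeared weighted by length, they are not numbers of reads, and its counting error can be judged only roughly from them.

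**Figure D1:**
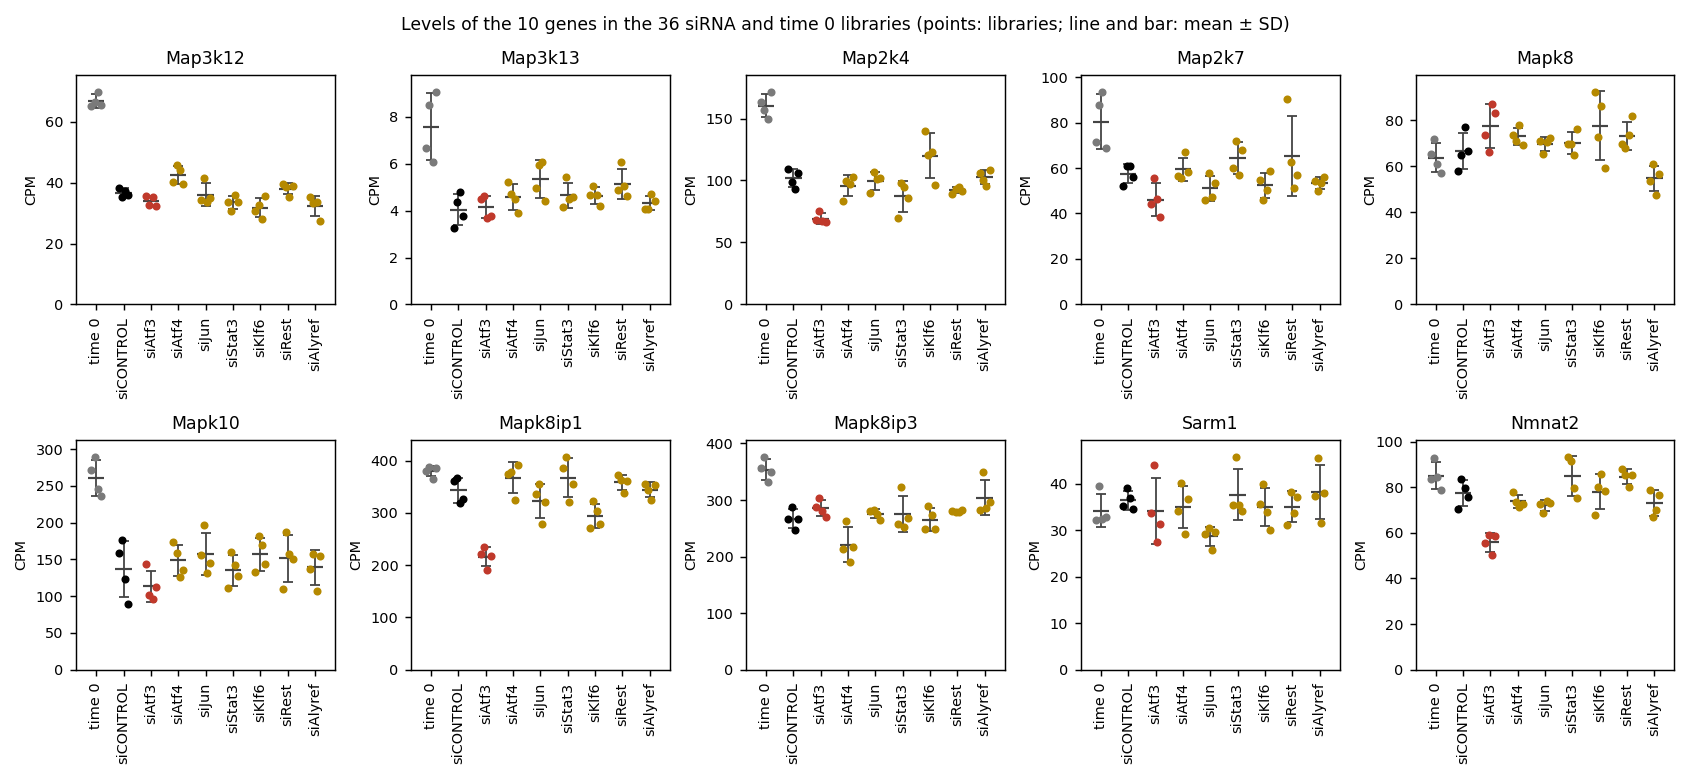
Each panel plots the level of 1 gene in CPM (linear axis from 0) in the 36 libraries of time 0, siCONTROL and the 7 knockdowns; points are libraries, horizontal lines are group means and bars are SD. In 6 panels the time 0 points lie above all siCONTROL points, and the siAtf3 points of Map2k4, Mapk8ip1 and Nmnat2 lie below all siCONTROL points. The share of all genes whose groups separate in these ways was not counted.

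Over 42 h in culture the upstream kinases of the pathway declined, while Sarm1, Nmnat2 and JNK1 showed no call. Against time 0, 6 of the 10 genes fell in siCONTROL cultures and 0 rose. This was an unsettled background: 57.9% of 13448 genes tested passed the threshold (adjusted p under 0.05, edgeR quasi-likelihood test with Benjamini-Hochberg adjustment) and 29.2% passed as lower. The median log2 fold change was -0.45 over the 10 genes and 0.01 over all genes tested.

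Map3k12, the initiating kinase, had 65.0, 66.7, 69.9 and 65.4 CPM at time 0 and 38.3, 35.2, 37.4 and 35.9 CPM in siCONTROL. The groups were far apart and each was tight: Map3k12 fell 1.83-fold (log2 fold change -0.87 ± 0.0801 SE, adjusted p = 3.91e-06). Its relative Map3k13 had 6.69, 8.49, 6.09 and 9.08 CPM at time 0 and 3.26, 4.36, 4.79 and 3.79 CPM in siCONTROL. It fell to a like extent, 1.85-fold, with an error that was larger (-0.88 ± 0.239 SE, adjusted p = 0.00801). The ratio of Map3k12 to Map3k13 within a library was 9.06 ± 1.94 at time 0 and 9.29 ± 1.81 in siCONTROL (mean ± SD, n = 4), with wide overlap.

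Both middle kinases fell. Map2k4, which phosphorylates JNK and p38, had 164, 157, 149.6 and 172 CPM at time 0 and 109, 99.0, 93.5 and 106 CPM in siCONTROL, a 1.58-fold fall (adjusted p = 3.11e-05). Map2k7, which acts on JNK alone, had 71.5, 87.9, 93.6 and 68.7 CPM at time 0 and 52.2, 61.0, 60.8 and 56.0 CPM in siCONTROL. It fell 1.40-fold (adjusted p = 0.00323), and its groups also did not overlap.

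The JNK genes parted. Mapk10, the JNK isoform restricted mostly to neurons, had 271, 289, 245 and 237 CPM at time 0 and 159, 176, 124 and 89.9 CPM in siCONTROL. It fell 1.91-fold (-0.93 ± 0.167 SE, adjusted p = 0.000595), and its siCONTROL libraries were spread widely. Mapk8, the broadly expressed isoform, had 56.9 to 71.6 CPM at time 0 and 58.0 to 76.9 CPM in siCONTROL (0.06 ± 0.106 SE, adjusted p = 0.638, 95% interval -0.14 to 0.27). The ratio of Mapk10 to Mapk8 was between 4.01 and 4.16 at time 0 and between 1.35 and 2.74 in siCONTROL.

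Among the scaffolds, Mapk8ip3, which links JNK to kinesin and to retrograde cargo, had 357, 376, 332 and 350.3 CPM at time 0 and 267, 288, 248 and 266 CPM in siCONTROL. It fell 1.33-fold (adjusted p = 0.000313). Mapk8ip1 had 365 to 387 CPM at time 0 and 319 to 366 CPM in siCONTROL, ranges that met at their edge, and did not pass (-0.15 ± 0.0644 SE, adjusted p = 0.0639). Over the alternative fits its adjusted p lay on both sides of the threshold, with 0.0429 as the value without siCONTROL replicate 2.

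The axon survival pair did not pass. Sarm1 had 32.1 to 39.5 CPM at time 0 and 34.6 to 39.2 CPM in siCONTROL (0.09 ± 0.105 SE, 95% interval -0.12 to 0.30, adjusted p = 0.487). Nmnat2 had 78.9 to 93.0 CPM at time 0 and 70.4 to 83.5 CPM in siCONTROL (-0.14 ± 0.0832 SE, 95% interval -0.30 to 0.03, adjusted p = 0.179). Within libraries, Nmnat2 exceeded Sarm1 2.49 ± 0.131 times at time 0 and 2.12 ± 0.0855 times in siCONTROL, and the ranges, 2.36 to 2.60 and 1.99 to 2.19, did not overlap.

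Cell markers moved in the same comparison. Among 11 pan-neuronal markers 6 fell and 1 rose; they summed to 18043 to 20098 CPM at time 0 and to 12697 to 16082 CPM in siCONTROL. Among 7 satellite glia markers 5 fell and 2 rose (summed mean 4973 CPM at time 0, 784 CPM in siCONTROL), and 6 of 7 Schwann cell markers fell (2890.1 and 1685 CPM). Of 6 endothelial and mural markers 3 rose and 2 fell (summed means 153 and 202 CPM). Of 5 fibroblast markers tested 2 rose and 1 fell (133 and 145 CPM). Of 4 macrophage markers tested 2 rose and 2 fell (12.7 and 36.1 CPM), and 2 of 2 red cell markers tested fell. The part of these shifts in the falls of the kinases was not tested. Control cultures were also transfected, so time and transfection cannot be told apart.

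The wider pathway, taken from 5 lists, moved in both directions with culture. Of 22 other kinases upstream of or parallel to JNK, 7 rose and 10 fell: the MAP4 kinase Map4k4 rose 2.61-fold, while Map4k2 fell from 70.6 to 18.4 CPM, Mink1 2.06-fold and the p38 activator Map2k6 from 7.34 to 0.933 CPM. Of 14 scaffolds and stability factors, 2 rose and 7 fell, among them the scaffold Spag9 (JIP4, 1.54-fold lower), the ubiquitin ligase Mycbp2 that limits DLK (1.58-fold lower) and the palmitoyltransferase Zdhhc17 (1.69-fold lower). Of 5 JNK-directed phosphatases, 4 rose and 1 fell, with Dusp10 4.73-fold, Dusp4 3.23-fold and Dusp16 2.40-fold higher. Of 8 genes of NAD metabolism and axon survival tested, Nadk rose 2.59-fold and Parp1 fell 1.75-fold. Of 14 JNK substrates and injury genes, 6 rose and 4 fell, with Sprr1a (0.530 to 328 CPM), Csf1 (7.43-fold), Chac1 (10.7-fold) and Atf3 (6.27-fold) higher.

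**Figure D2:**
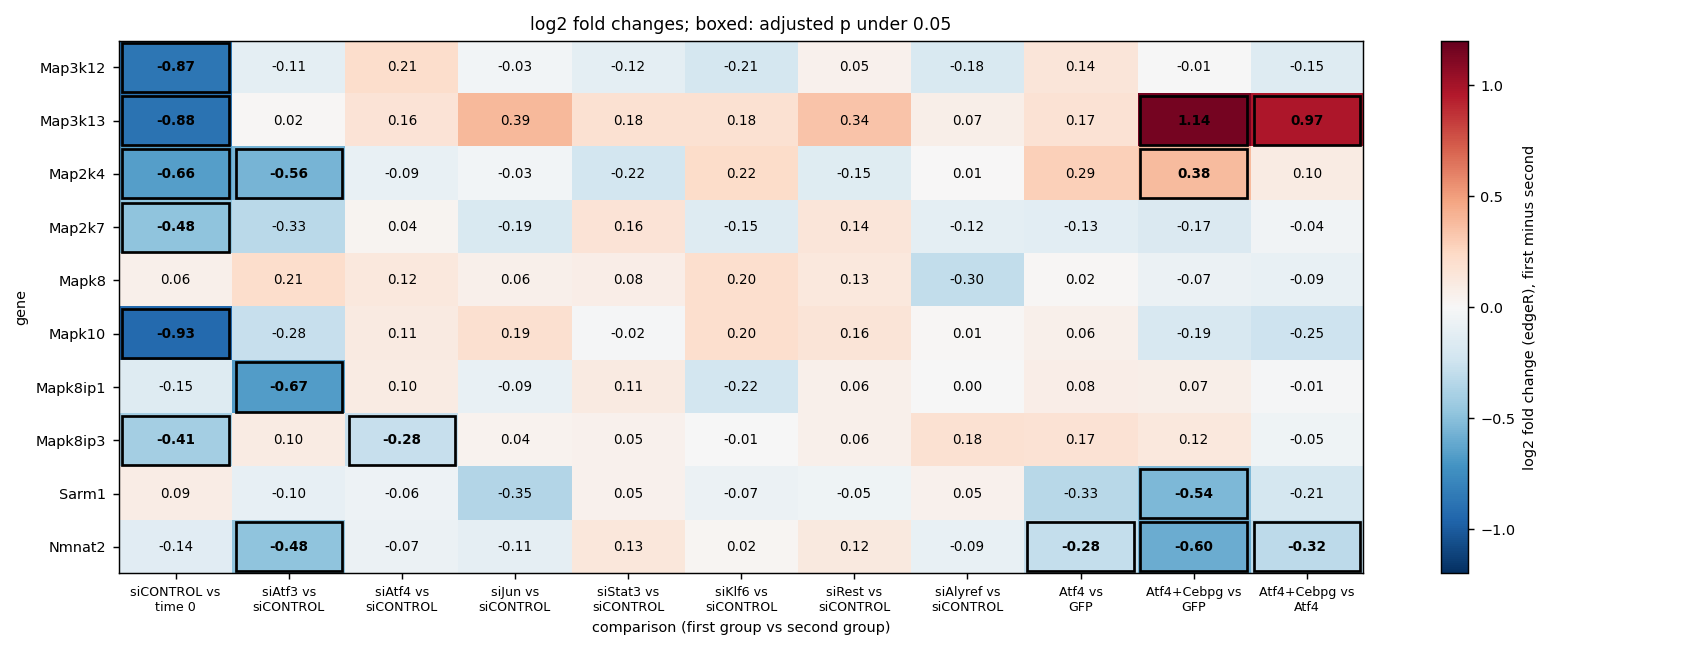
The grid gives the edgeR log2 fold change of each gene (rows) in each of the 11 comparisons (columns, first group against second), with blue for lower and red for higher; boxed cells passed an adjusted p of 0.05. The boxes stand in the culture column, in 3 rows of siAtf3, in 1 row of siAtf4 and in the mRNA columns, and the columns of siJun, siStat3, siKlf6, siRest and siAlyref hold 0 boxes.

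At 42 h, the siAtf3 pool lowered the scaffold JIP1, the kinase MKK4 and the survival enzyme NMNAT2 at the transcript level, and left the DLK and SARM1 transcripts within error. Over the 7 knockdowns, 4 of 70 gene and knockdown pairs fell and 0 rose. The share of all genes that passed ran from 0.202% (siRest) to 11.5% (siAtf3) over the same knockdowns. The pooled 4 of 70 lies within that range and is not read as a result about these genes. With the replicate number as a block 6 pairs passed, the added pairs being Sarm1 with siJun and Mapk8ip1 with siKlf6. Of the 4 pairs, 3 belonged to siAtf3, in which 11.5% of 14876 genes passed and 7.49% passed as lower. All 7 comparisons share the same 4 siCONTROL libraries.

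Mapk8ip1 had 221, 235, 191 and 218 CPM with siAtf3 against 362, 366, 319 and 326 CPM in siCONTROL. Every siAtf3 library was lower than every control, and the gene fell 1.59-fold (-0.67 ± 0.0797 SE, adjusted p = 5.26e-07). Map2k4 had 68.1, 75.4, 67.0 and 66.5 CPM with siAtf3 against 109, 99.0, 93.5 and 106 CPM. It fell 1.47-fold (-0.56 ± 0.0978 SE, adjusted p = 0.000156), again without overlap. Nmnat2 had 55.3, 59.0, 50.1 and 58.6 CPM with siAtf3 against 70.4, 83.5, 79.7 and 75.9 CPM. It fell 1.39-fold (-0.48 ± 0.0758 SE, adjusted p = 4.24e-05), the lowest level of Nmnat2 in the siRNA groups.

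The other genes did not pass with siAtf3. Map2k7 had 44.0, 55.6, 46.5 and 38.5 CPM against 52.2 to 61.0 CPM (-0.33 ± 0.130 SE, adjusted p = 0.109), and without siAtf3 replicate 2, the highest library, its adjusted p was 0.0415. Map3k12 (-0.11), Sarm1 (-0.10), Mapk10 (-0.28), Mapk8ip3 (0.10), Map3k13 (0.02) and Mapk8 (0.21, all log2 fold changes) had adjusted p between 0.235 and 0.992. Because Nmnat2 fell and Sarm1 did not pass, the ratio of Nmnat2 to Sarm1 was 1.67 ± 0.240 with siAtf3 and 2.12 ± 0.0855 in siCONTROL, with siAtf3 libraries at 1.34 to 1.86 and controls at 1.99 to 2.19. The scaffolds changed order: Mapk8ip1 exceeded Mapk8ip3 in every siCONTROL library (ratio 1.23 to 1.36) and was below it in every siAtf3 library (0.679 to 0.806).

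These 3 falls were also set directly against the other knockdowns, a contrast chosen after their values were seen. Against the mean of the other 6 knockdowns, where 17.6% of genes passed and 9.34% passed as lower, siAtf3 was lower for Mapk8ip1 (-0.66 ± 0.0638 SE, adjusted p = 6.73e-09), Map2k4 (-0.52 ± 0.0772 SE, adjusted p = 1.02e-05) and Nmnat2 (-0.48 ± 0.0597 SE, adjusted p = 5.91e-07). Map2k7 passed there too (-0.31 ± 0.101 SE, adjusted p = 0.0328). Against each of the 6 alone, Mapk8ip1, Map2k4 and Nmnat2 were lower with siAtf3 in all 6 contrasts. The log2 difference ran from -0.45 (siKlf6) to -0.77 (siStat3) for Mapk8ip1, from -0.34 (siStat3, with overlapping libraries) to -0.78 (siKlf6) for Map2k4, and from -0.37 (siJun) to -0.61 (siStat3) for Nmnat2. The share of all genes that passed was 22.9% against siAtf4 (12.1% lower, 10.7% higher), 9.87% against siJun (5.99% lower), 12.1% against siStat3 (7.48% lower), 13% against siKlf6 (7.52% lower), 12.9% against siRest (7.88% lower) and 14.4% against siAlyref (7.71% lower, 6.69% higher). Of the other genes, Map2k7 was lower with siAtf3 than with siStat3 (-0.49, adjusted p = 0.0112) and siRest (-0.47, adjusted p = 0.0149, with overlapping libraries). Mapk8 was higher with siAtf3 than with siAlyref (0.51, adjusted p = 0.00118), without overlap. Further calls against siAtf4 are given below. The 6 contrasts share the siAtf3 libraries.

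With siAtf3, 7 of 11 pan-neuronal markers fell, and they summed to 10139.9 to 12943 CPM against 12697 to 16082 CPM in siCONTROL. Glial sums were lower too, without overlap. Satellite glia markers, of which 1 of 7 fell, summed to 543 to 662 CPM against 746 to 853 CPM. Schwann cell markers, of which 1 of 6 tested fell, summed to 1103 to 1387 CPM against 1517 to 1813 CPM. The median log2 fold change was -0.004 for the satellite glia list and -0.17 for the Schwann cell list, against 0.01 for all genes. The satellite glia sum therefore does not stand for its list. The part of these marker shifts in the falls of the 3 genes was not tested.

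In the wider lists, siAtf3 was followed by 3 rises and 4 falls among 22 other kinases, with the mixed-lineage kinases Map3k9 and Map3k10 1.51-fold and 1.38-fold lower, Map4k5 1.51-fold lower and Map3k4 1.33-fold higher. The third JIP scaffold gene, Mapk8ip2, was the 1 gene of 15 scaffold and stability factors that fell (1.36-fold, adjusted p = 0.0139). Stmn2, which encodes a short-lived axon maintenance protein, was the 1 of 11 NAD and axon survival genes that fell (1.35-fold, adjusted p = 0.00203). Among 5 JNK phosphatases, Dusp8 rose 1.81-fold and Dusp16 1.69-fold while Dusp10 fell 1.70-fold, and 2 rose and 2 fell in all. Of 16 substrates and injury genes, 2 rose (Hrk 2.42-fold, Chac1 1.59-fold) and 4 fell, including Sprr1a 2.15-fold and the target Atf3 itself.

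With siAtf4 (6.91% of genes passed, 4.17% as lower) the gene that passed was Mapk8ip3, at 214, 263, 190.2 and 216 CPM against 267, 288, 248 and 266 CPM in siCONTROL. One siAtf4 library lay inside the control range, and the fall was 1.21-fold (-0.28 ± 0.0833 SE, adjusted p = 0.0383). This call did not hold when either siCONTROL replicate 1, 2 or 4 or siAtf4 replicate 1, 3 or 4 was left out, with adjusted p up to 0.181. With the replicate number as a block the adjusted p was 0.00166. Direct comparison of siAtf3 with siAtf4, which share no libraries, gave log2 differences, siAtf3 minus siAtf4, of 0.37 for Mapk8ip3 and -0.76 for Mapk8ip1 (adjusted p = 0.00109 and 1.42e-08). Map3k12 had a log2 fold change of 0.21 ± 0.0867 SE with siAtf4 against siCONTROL and did not pass (adjusted p = 0.166), but it was lower in siAtf3 than in siAtf4 (-0.32 ± 0.0864 SE, adjusted p = 0.00598), without overlap. Map2k4 (-0.47), Nmnat2 (-0.41) and Map2k7 (-0.36) were also lower in siAtf3 in that contrast, so 5 of the 10 genes were lower and 1 higher. Of all genes tested there, 22.9% passed, 12.1% as lower and 10.7% as higher.

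Knockdown of Jun, the transcription factor that JNK phosphorylates, moved 7.78% of genes at an adjusted p under 0.05. By edgeR and by DESeq2 0 of the 10 passed. Of the 10, 1 had an unadjusted p under 0.05, a level at which the share of all genes was not counted. Sarm1 stood closest: it had 29.2, 30.4, 25.8 and 29.6 CPM with siJun against 35.3, 39.2, 37.0 and 34.6 CPM in siCONTROL. The groups did not overlap, at -0.35 ± 0.130 SE and an adjusted p of 0.105, and with the replicate number as a block the adjusted p was 0.00648 (-0.35 ± 0.0839 SE). The ratio of Nmnat2 to Sarm1 was 2.25 to 2.86 with siJun, above the siCONTROL range of 1.99 to 2.19, as it also was with siRest (2.23 to 2.83). Satellite glia markers summed to 487 to 717 CPM with siJun, below all controls (746 to 853 CPM). Of these 7 markers, however, 1 fell and 0 rose, and their median log2 fold change was 0.20. The part of such marker shifts in the Sarm1 values was not tested. Of 16 JNK substrates and injury genes 1 rose and 4 fell: Jun itself 3.35-fold, Sprr1a 2.96-fold, Csf1 1.93-fold and the growth-associated gene Gap43 1.40-fold. Of 5 JNK phosphatases 2 fell, Dusp10 2.05-fold and Dusp1 1.44-fold. Of 22 other kinases 2 rose (Map3k5 1.51-fold, Mapk11 1.32-fold) and 3 fell, with Tnik 1.75-fold and Mapk14 1.40-fold lower. Of 11 NAD and axon survival genes 1 fell.

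The remaining pools gave 0 calls among the 10 genes by edgeR, with backgrounds of 3.03% (siStat3), 1.85% (siKlf6), 0.202% (siRest) and 4.26% (siAlyref). DESeq2 also called 0. At an unadjusted p under 0.05 there was 1 gene with siStat3, 3 with siKlf6, 0 with siRest and 3 with siAlyref. The share of all genes under that unadjusted level was not counted. The backgrounds above are at an adjusted p and cannot be set against these counts. The log2 fold changes ranged from -0.22 (Map2k4) to 0.18 (Map3k13) with siStat3, from -0.22 (Mapk8ip1) to 0.22 (Map2k4) with siKlf6, from -0.15 (Map2k4) to 0.34 (Map3k13) with siRest, and from -0.30 (Mapk8) to 0.18 (Mapk8ip3) with siAlyref. Mapk8ip1 had 272, 323, 303 and 279 CPM with siKlf6, 3 of them below all controls and 1 within their range. With the replicate block, in which siKlf6 replicate 5 has no partner and adds nothing, it was at -0.24 ± 0.0536 SE with an adjusted p of 0.0114.

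The third part of the design added Atf4 and its dimer partner Cebpg as mRNA. Dimers of ATF4 with C/EBP proteins bind a composite element, so the promoter windows of the 10 genes were searched on both strands for TGATGNAA, for the CRE TGACGTCA and for the AP-1 element TGANTCA. RefSeq windows on build GRCm38.p6, 250 bases before each annotated start, were found for 9 of the 10 genes (14 windows); Mapk8ip1 was not among them. Of all 32851 windows, 3.45% held TGATGNAA, 1.55% TGACGTCA and 6.75% TGANTCA. The windows below are shown because Map3k13 responded most to the 2 mRNAs, Nmnat2 fell with them, and Map2k7 held a match without a called response; capitals mark matches and all are written 5′ to 3′ along the gene's strand.
Map3k13 (chr16:21891719-21891968, plus strand): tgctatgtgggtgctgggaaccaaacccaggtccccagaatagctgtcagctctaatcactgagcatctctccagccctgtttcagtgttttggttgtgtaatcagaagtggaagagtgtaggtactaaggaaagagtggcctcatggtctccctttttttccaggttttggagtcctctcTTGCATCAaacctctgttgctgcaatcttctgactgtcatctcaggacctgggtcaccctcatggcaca
Map2k7, second start (chr8:4239855-4240104, plus strand): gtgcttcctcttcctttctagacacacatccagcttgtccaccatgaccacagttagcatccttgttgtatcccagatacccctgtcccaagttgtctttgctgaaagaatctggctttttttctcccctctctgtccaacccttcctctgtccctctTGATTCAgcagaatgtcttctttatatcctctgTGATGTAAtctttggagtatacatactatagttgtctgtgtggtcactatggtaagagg
Nmnat2 (chr1:152954851-152955100, plus strand): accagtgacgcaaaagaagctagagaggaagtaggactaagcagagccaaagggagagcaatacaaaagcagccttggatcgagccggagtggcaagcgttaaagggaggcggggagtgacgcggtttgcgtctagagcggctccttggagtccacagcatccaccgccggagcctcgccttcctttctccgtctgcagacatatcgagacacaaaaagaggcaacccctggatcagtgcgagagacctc

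The Map3k13 window held 1 match, TTGCATCA, the reverse complement of the composite element, starting 69 bases before the annotated start. The Map2k7 window held an AP-1 match and a composite match, 92 and 59 bases before its second start, and its first window held neither. Of the other windows, the first of Mapk10 held a CRE 29 bases before the start, and those of Map3k12, Map2k4, Mapk8, Mapk8ip3, Sarm1 and Nmnat2 held none of the 3. A match is a string of letters and says nothing of binding here.

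With Atf4 and Cebpg mRNA together, LZK and MKK4 transcripts rose while both members of the axon survival pair fell. Of the 10 genes, 2 rose and 2 fell against GFP mRNA, in a comparison in which 24.6% of 13857 genes passed (12.4% higher, 12.2% lower). The 4 of 10 is not far above that background.

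Map3k13 had 4.30, 3.92, 3.93 and 4.80 CPM with GFP mRNA, 5.24, 5.28, 4.40 and 4.10 CPM with Atf4 mRNA, and 8.49, 9.61, 9.80 and 8.82 CPM with both. The first pair of groups overlapped and the third stood clear of both. Against GFP it rose 2.21-fold with both mRNAs (1.14 ± 0.191 SE, adjusted p = 0.000726), and against Atf4 mRNA alone 1.96-fold (0.97 ± 0.191 SE, adjusted p = 0.00785). With Atf4 mRNA alone it did not pass (0.17 ± 0.197 SE). Map3k12 showed no such shift with both mRNAs (-0.01 ± 0.124 SE, 95% interval -0.25 to 0.24), and the ratio of Map3k12 to Map3k13 was 7.17 ± 0.291 with GFP and 3.32 ± 0.771 with both.

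Map2k4 had 89.4, 92.2, 79.5 and 99.8 CPM with GFP mRNA, 103, 114, 102 and 119 CPM with Atf4 mRNA, and 123, 118, 103 and 121 CPM with both. Both transfected groups were above GFP in every library, and the 2 overlapped each other. The gene rose with both mRNAs (log2 fold change 0.38 ± 0.0893 SE, adjusted p = 0.00684), and with Atf4 alone the gene did not pass (0.29 ± 0.0888 SE, adjusted p = 0.0839). With the replicate number as a block the adjusted p for Atf4 alone was 0.0208.

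**Figure D3:**
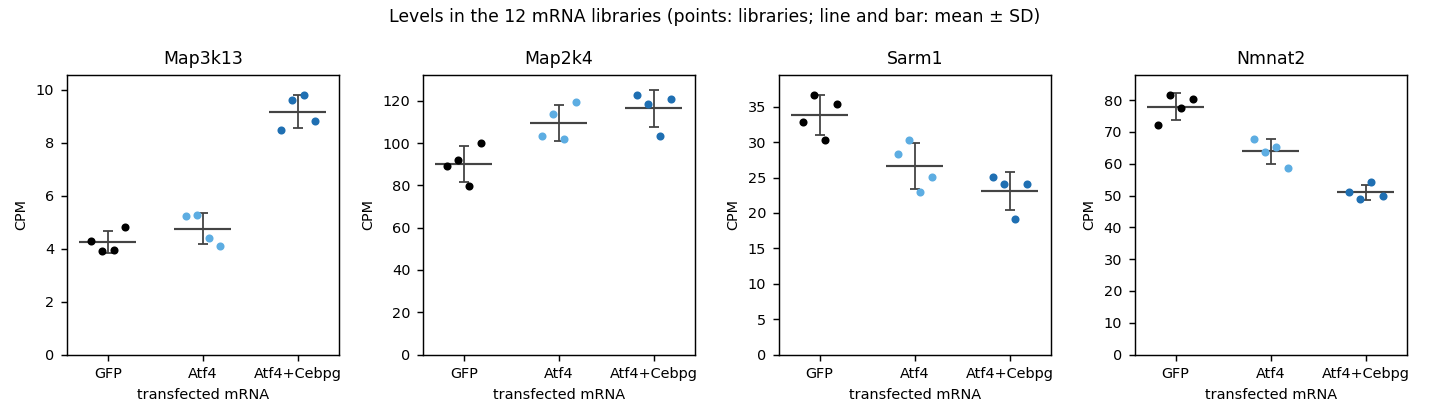
Each panel plots 1 gene in CPM (linear axis from 0) in the 12 libraries given GFP, Atf4, or Atf4 and Cebpg mRNA; points are libraries, lines are means and bars are SD. Map3k13 is high in the 4 libraries with both mRNAs, and Nmnat2 lies stepwise lower, from 72.3 to 81.5 CPM, through 58.6 to 67.9 CPM, to 48.8 to 54.3 CPM.

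Nmnat2 had 72.3, 81.5, 77.7 and 80.4 CPM with GFP mRNA, 67.9, 63.8, 65.2 and 58.6 CPM with Atf4 mRNA, and 51.2, 48.8, 54.3 and 49.9 CPM with both. The 3 groups did not overlap. The fall with both mRNAs was 1.51-fold (-0.60 ± 0.0769 SE, adjusted p = 9.61e-05). The smaller steps were less secure: Atf4 alone against GFP was 1.22-fold lower (-0.28 ± 0.0750 SE, adjusted p = 0.0469) and lost its call whichever of the 8 libraries was left out, with adjusted p up to 0.134. Adding Cebpg to Atf4 lowered it 1.24-fold (-0.32 ± 0.0778 SE, adjusted p = 0.0267), a call lost without Atf4 and Cebpg replicate 2 or 4 or any single Atf4 library except replicate 4, with adjusted p up to 0.0948.

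Sarm1 had 32.8, 36.6, 30.4 and 35.5 CPM with GFP mRNA, 28.3, 30.3, 23.0 and 25.0 CPM with Atf4 mRNA, and 25.1, 24.0, 19.1 and 24.1 CPM with both. All libraries with Atf4 mRNA were below all GFP libraries. The fall with both was 1.45-fold (-0.54 ± 0.122 SE, adjusted p = 0.00572), and with Atf4 alone the gene did not pass (-0.33 ± 0.119 SE, adjusted p = 0.133). Since Nmnat2 and Sarm1 moved together, their ratio was 2.31 ± 0.165 with GFP, 2.42 ± 0.305 with Atf4 and 2.25 ± 0.399 with both, with overlapping ranges.

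**Figure D4:**
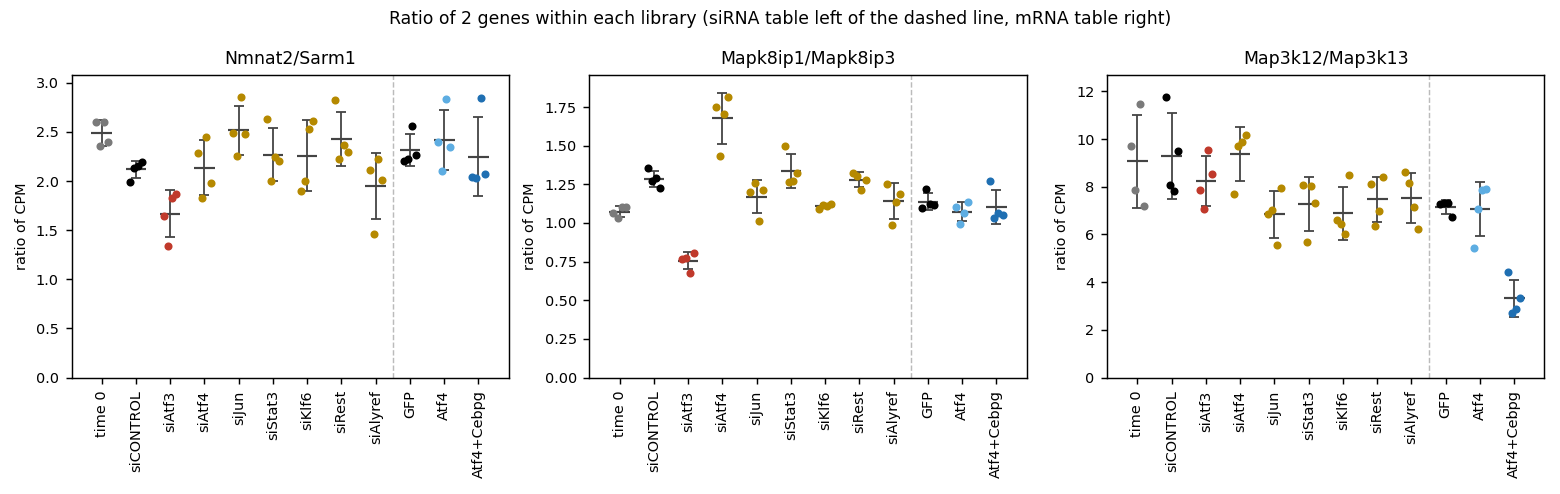
Each panel plots the ratio of the CPM of 2 genes within each of the 48 libraries (linear axis from 0), with the siRNA table left of the dashed line and the mRNA table right of it; lines are means and bars are SD. Nmnat2 to Sarm1 and Mapk8ip1 to Mapk8ip3 have their lowest mean with siAtf3, and Map3k12 to Map3k13 has its lowest mean with Atf4 and Cebpg mRNA.

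The other 6 genes did not pass with both mRNAs, with log2 fold changes from -0.19 (Mapk10) to 0.12 (Mapk8ip3). With Atf4 alone, where 4.84% of genes passed and 2.09% as lower, Nmnat2 was the 1 call. Between both mRNAs and Atf4 alone, where 6.6% passed (4.5% higher, 2.1% lower), Map3k13 and Nmnat2 were the 2 calls. With both mRNAs 2 of 11 pan-neuronal markers fell and 1 rose (sum 10094.5 to 12807 CPM against 11964 to 14574 CPM with GFP), and endothelial and mural markers rose in 3 of 6. Satellite glia markers summed to 426 to 526 CPM with both mRNAs and 569.5 to 641 CPM with GFP, without overlap. Yet 1 of these 7 markers rose and 1 fell (list median -0.07, log2), so the sum does not stand for the list. Among 6 Schwann cell markers tested 1 rose and 1 fell (list median 0.29), and 1 of 6 fibroblast markers rose and 0 fell (0.29). The part of the marker shifts in these results was not tested. Cebpg made up 4.53% to 8.66% of the column totals of expected counts, before TMM scaling, in the libraries given both mRNAs. TMM scaling is meant to allow for such a share.

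Around them, the third JIP gene Mapk8ip2 fell 1.65-fold with both mRNAs (adjusted p = 0.000138) and 1.41-fold with Atf4 alone, and Stmn2 fell 1.49-fold and 1.34-fold. With both mRNAs, 3 of 14 scaffold and stability factors fell and 2 rose, including Arrb2 at 1.41-fold higher. Among 21 other kinases, 2 rose (Map2k3 1.32-fold, Map3k2 1.42-fold) and 3 fell (Tnik 1.73-fold, Map3k10 1.33-fold among them). Of 16 JNK substrates and injury genes 0 rose and 4 fell: Sprr1a 3.78-fold, Atf3 1.85-fold, Jun 1.68-fold and Csf1 1.61-fold. Of the 5 JNK phosphatases Dusp1 fell 1.91-fold and Dusp10 1.44-fold, and Dusp16 rose 1.36-fold.

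Over the 32 siRNA libraries of 42 h, the genes most like Nmnat2 by Pearson r of log2 CPM were Twf2 (r = 0.85), Ppp2r2c (0.84) and Arl6ip5 (0.84), among 9615 genes with a mean of at least 10 CPM. Those most like Map3k12 were Dpysl5 (0.78), Stmn1 (0.75) and Arhgap39 (0.74), and those most like Sarm1 were Pla2g3 (0.76), Slc27a4 (0.76) and Ywhag (0.74). These libraries share scaling and the spread between cultures, and the values are descriptions.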

How the data were processed

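Per the submitters' processing notes, the authors quantified reads with kallisto on GRCm39 and deposited expected counts, which are estimates and often not whole. They form a table of 36 siRNA and time 0 libraries and a table of 12 mRNA libraries. No version, annotation or scaling step was given in those sources. In single-transcript genes of at least 2000 bp, small values multiplied by effective length (length less 200 bp) clustered within 4% of 1 constant per library, 1770 to 2057 bp, for 58.5% to 75.1% of values, so counts were taken as weighted by length. Such a weight cancels in a fold change, apart from isoform shifts, but the count model's sampling error is then only approximate.

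Symbols from GENCODE M21 matched 32470 of 34183 identifiers. Counts were rounded, filtered by filterByExpr, scaled by TMM and tested with edgeR 4.0.16 (glmQLFit, glmQLFTest) in R 4.3.3, with Benjamini-Hochberg adjustment over all genes tested and a threshold of 0.05. Time 0 and siCONTROL were fitted alone (8 libraries), the 7 knockdowns with siCONTROL (32) and the mRNA groups together (12). CPM were TMM-scaled over each table. Intervals at 95% are normal intervals from the SE. The code was tested on simulated data with 200 changed genes. Alternatives were 3 other scalings, DESeq2 1.42.0, no filter, a replicate block, other sets of groups and each library left out.

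All 10 genes are named; from each of the 5 pathway lists up to 4 genes per comparison could be named, those with the smallest adjusted p among genes past the threshold at 1.3-fold or more. The 10 genes and the lists were chosen with earlier results of these data known. Ddit3 was not matched by symbol and is not analysed here. Deviations from group means correlated between same-numbered libraries at 0.101 or more in every pair of the 7 knockdown comparisons. The lowest value was 0.130 in the comparisons of Atf4 with Cebpg, 0.0629 for culture and 0.0837 for Atf4 against GFP. The mean for same-numbered libraries was above 0 in every comparison (0.181 to 0.315). Deviations within a group sum to 0, which pushes the mean for differently numbered libraries below 0 when that for same-numbered ones is above it. The negative means found for differently numbered libraries therefore add no further information. The numbers may therefore mark pairs. The main tests held no block for them, and blocked values are given where a block changed a call.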

Additional observations from a re-analysis of the deposited data

Results flagged for a closer look

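In 3 of 120 sets of 4 libraries (10 genes in 12 groups), 1 library lay far from the other 3, by a gap that chance gives in about 1 in 20 sets. Sarm1 was at 39.5 CPM in time 0 replicate 2, against 32.1 to 32.9 CPM in the others. Sarm1 was at 45.8 CPM in siStat3 replicate 2, against 34.1 to 35.5 CPM. Map3k12 was at 41.6 CPM in siJun replicate 2, against 33.7 to 34.8 CPM. None of these groups gave a call for the gene concerned.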

How the results depend on the processing

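Of 110 single results (10 genes in 11 comparisons), each under 15 alternatives (1650 values), 1615 kept their side of the threshold, 29 lost a call, 6 gained one and 0 reversed. The counts of genes past the threshold stayed within 1.5 times: 6 to 7 for culture, 3 to 6 for the knockdowns (4 as reported) and 5 to 8 for the mRNA comparisons (7 as reported). With each library left out in turn they ranged from 6 to 7, 3 to 5 and 5 to 7. The replicate block gave 7, 6 and 8. It added Mapk8ip1 for culture (adjusted p = 0.0471) and Map2k4 for Atf4 against GFP (adjusted p = 0.0208). Beyond these and the blocked values given above for Sarm1 with siJun and Mapk8ip1 with siKlf6, the block changed no other call.

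The 29 lost calls belonged to Mapk8ip3 with siAtf4 and to Nmnat2 with Atf4 alone or between both mRNAs and Atf4; for the first pair they included scaling by library totals (adjusted p = 0.0591 and 0.145) and no filter on low counts (0.0825 and 0.0917). The culture falls, the 3 siAtf3 falls and the 4 calls with both mRNAs against GFP, as well as the Map3k13 rise over Atf4 alone, passed in every alternative run. Scaling by library totals moved the median of all genes in the culture comparison to 0.11 (log2), and no filter moved that of both mRNAs against GFP to 0.10. Under library totals the share of called genes that were higher was 56.5% with siAtf3 (34.8% as reported), 71.5% with Atf4 (56.9%) and 51.7% between both mRNAs and Atf4 (68.2%). Counts over all genes moved by over 1.5 times for siRest (30 as reported, 47 by DESeq2, 18 without filter, 46 with the block, 5 with the pair fitted alone), siStat3 (450, 751 with the block, 204 alone), siKlf6 (275, 18 alone), siAlyref (633, 352 alone) and Atf4 against GFP (671, 1028 with the block). With 1 library left out, such moves were siRest 16 without siCONTROL replicate 1, 15 without siCONTROL replicate 3, and 17, 18 and 16 without siRest replicates 1, 2 and 3; siKlf6 160 without siKlf6 replicate 4; Atf4 against GFP 410, 411 and 442 without GFP replicates 1, 2 and 4, and 389 and 339 without Atf4 replicates 2 and 4; and both mRNAs against Atf4 (915) 575 and 553 without Atf4 and Cebpg replicates 2 and 4. The cause was not tested. Map3k13 was the scarcest of the genes, with a median expected count of 22.5, a value that appeared weighted by length and is not a number of reads.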

Other observations

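Nmnat2 was lower both with siAtf3 (1.39-fold, against siCONTROL) and with Atf4 and Cebpg mRNA (1.51-fold, against GFP mRNA), comparisons that share no library. Atf3 itself was 5.76-fold lower in the first and 1.85-fold lower in the second. Whether the levels of Atf3 and Nmnat2 are linked was not tested. Of the other genes that fell with siAtf3, Map2k4 rose with the mRNAs (log2 fold change 0.38), and Mapk8ip1 did not pass, with a log2 fold change of 0.07 ± 0.0783 SE (adjusted p = 0.574). Mapk8ip2 and Stmn2 fell in both comparisons, Mapk8ip2 1.36-fold and 1.65-fold, and Stmn2 1.35-fold and 1.49-fold. The share of all genes that fell in both was not counted. With siAtf4, Nmnat2 had a log2 fold change of -0.07 ± 0.0749 SE (adjusted p = 0.676) and Map3k13 0.16 ± 0.170 SE (adjusted p = 0.807), and neither passed.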
